A study of Mus musculus with 9 samples.

Results

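The enzymes described here write, remove or oxidise chemical marks on histones and DNA, or move nucleosomes. They were taken as every gene whose symbol in the RNA tables begins with Kmt2, Setd, Ezh, Kdm, Prmt, Kat, Hdac, Sirt, Dnmt, Tet or Chd followed by a number. The rule found 83 genes among 23471, and all 83 were among the 14324 genes that passed the filter on low counts. RNA was sequenced from 3 populations sorted from bone marrow pooled from Balb/c mice that had received no treatment, with 2 libraries per population. Granulocyte-monocyte progenitors (GMP) were lineage-negative, CD34-positive, CD16/32-positive and high in c-kit. Eosinophil progenitors (EoP) were lineage-negative, CD34-positive, low in c-kit and positive for CD125, the interleukin-5 receptor. Eosinophils (Eos) were positive for CCR3 and Siglec-F. H3K4me3, trimethylation of lysine 4 of histone H3, was mapped in 1 library per population. No group carried a deletion, a transgene or a treatment. The number, age and sex of the pooled mice are not given in the labels, so p-values measure the spread between 2 libraries of pooled cells, which may be technical.

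H3K4me3 marks the starts of active genes, and the Setd1 and Kmt2 enzymes deposit methyl groups on this lysine while the Kdm5 family removes them. Ezh1 and Ezh2 are alternative catalytic subunits of Polycomb repressive complex 2, which methylates lysine 27 of histone H3 at silent genes, and Kdm6a and Kdm6b remove that mark. Dnmt1 copies DNA methylation after replication, Dnmt3a and Dnmt3b set it on new sites, and Tet enzymes oxidise it. Eosinophils are granulocytes that leave the bone marrow as cells that no longer divide, so their maturation joins a lineage programme to an exit from the cell cycle.

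Each RNA library held between 5226653 and 12088134 counts. Levels are given as CPM, counts scaled to library size with TMM factors so that most genes do not shift between libraries, and as RPKM, the deposited values normalised for transcript length and depth, wherever 2 genes are compared. Each population carried a transcript known from it. Mpo, a progenitor granule gene, was at 29891 and 28330 CPM in the GMP libraries. Epx, eosinophil peroxidase, was at 26969 and 23218 CPM in EoP, and 436 and 214 CPM in Eos. Ccr3 was at 2272 and 2973 CPM in the Eos libraries. Of 11 measured EoP and eosinophil markers, 3 were higher and 6 lower in Eos than EoP. Their summed level was 241608 and 193098 CPM in EoP, and 21369 and 25159 CPM in Eos. Eos also carried transcripts known from neutrophils. The summed level of 11 measured markers of that cell type was 41718 and 48235 CPM in Eos against 628 and 277 CPM in EoP, none of the 11 was at 0 in any library, and all 11 were higher in Eos. Of 8 genes of GMP, 5 were higher in Eos than EoP (Mpo, Elane, Prtn3, Ctsg and Csf1r) and 2 were lower (Kit and Cd34), and their summed level was 2718 and 3310 CPM in EoP and 15232 and 5414 CPM in Eos. Markers of other cell types moved as well. In Eos against EoP, 5 of 8 for monocytes and dendritic cells, 4 of 7 for B cells and 3 of 6 for T and NK cells were higher. For erythroid cells 4 of 7 were higher and 1, Tfrc, was lower, and 6 of 7 for mast cells and basophils were lower. Of all genes tested, 19.1% were higher and 17.7% lower. Summed over each of these other lists, the level in Eos was at most 617 CPM. The erythroid sum was 392 and 279 CPM in EoP, and 188 and 175 CPM in Eos. The T and NK sum was 346 and 339 CPM in EoP, and 431 and 152 CPM in Eos. The summed level of 34 DNA replication genes was 3585 and 3926 CPM in EoP, and 1512 and 712 CPM in Eos. Stress and early response genes set replicates apart: 19 of them summed to 825 and 3889 CPM in GMP, 7053 and 222 CPM in EoP, and 1910 and 6276 CPM in Eos. The part of any of these lists in the results that follow was not tested. In bulk RNA, fewer cells that express a gene and less RNA per cell cannot be told apart.

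The leading enzymes changed between populations. Per transcript length, Dnmt1 had the highest mean level among the 83 genes in GMP (23.8 RPKM), Ezh2 in EoP (37.1 RPKM) and Kmt2e in Eos (32.7 RPKM). From EoP to Eos, 24 members were higher (28.9%) and 12 were lower (14.5%) at an adjusted p under 0.05 in edgeR's quasi-likelihood test, against 19.1% higher and 17.7% lower among all genes tested. The median log2 fold change of the 83 members was 0.27, and that of all genes tested was 0.02. From GMP to EoP, 7 members were higher (8.43%) and 6 lower (7.23%), against 9.49% and 17.1% of all genes tested. Between Eos and GMP, 30 were higher (36.1%) and 15 lower (18.1%), against 22.7% and 31.8% of all genes. The 3 comparisons share their libraries, so none of them is independent of the others.

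**Figure D1:**
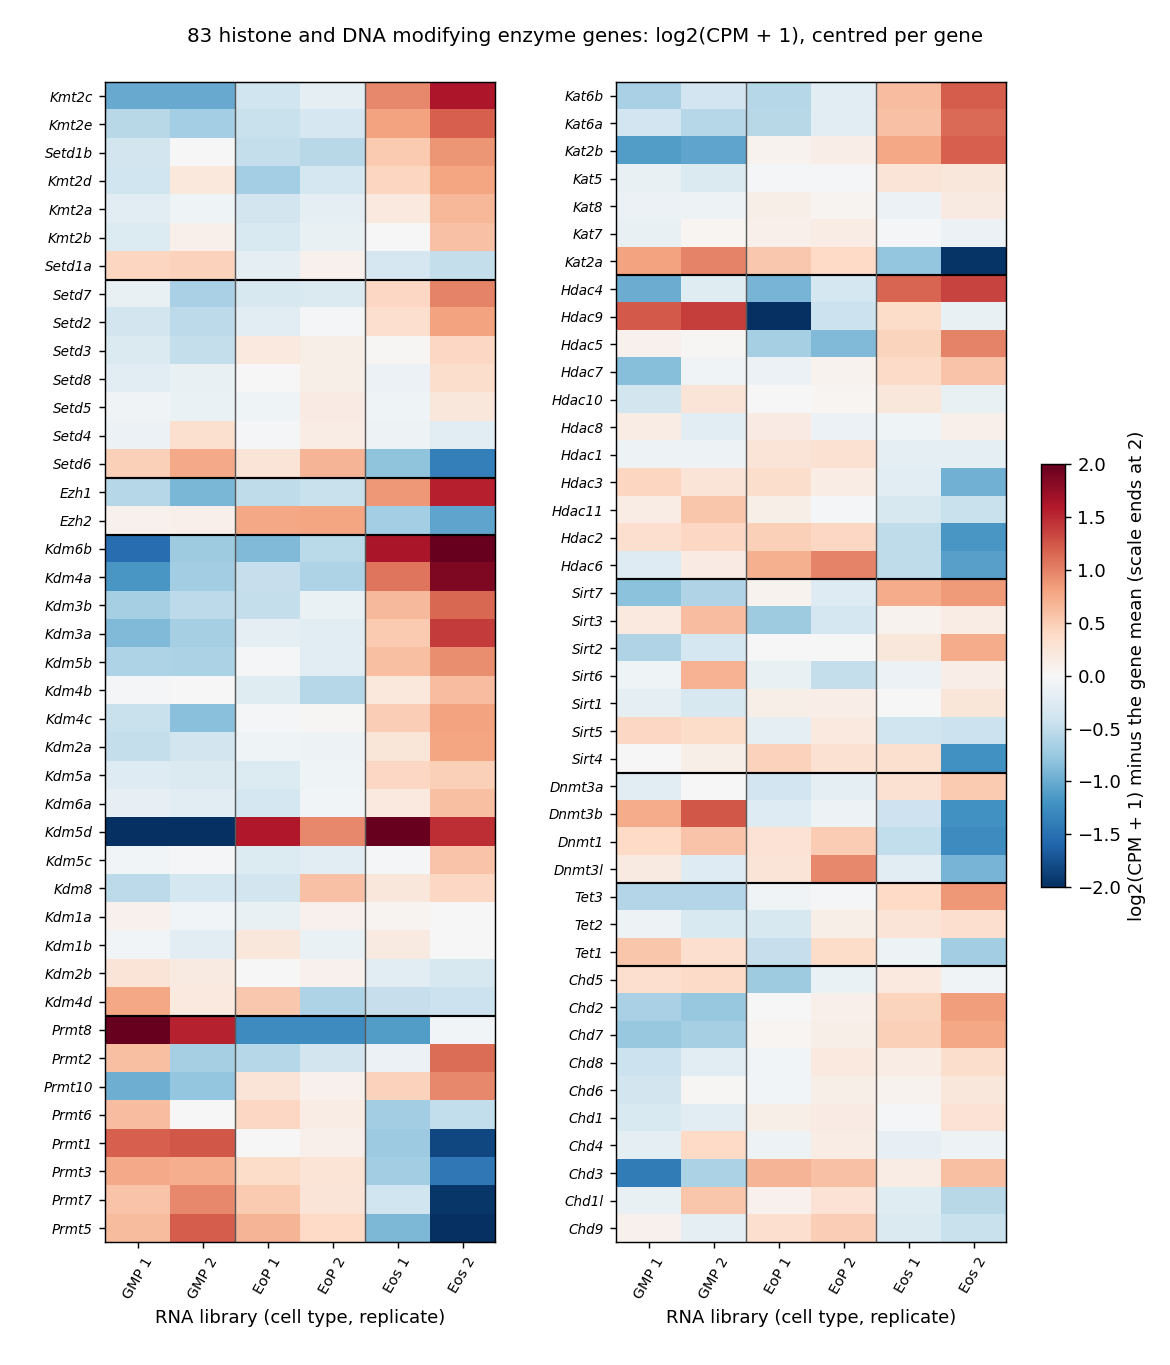
Heat map of the 83 enzyme genes (rows, grouped by class with black lines and ordered within a class by the Eos to EoP difference) in the 6 RNA libraries (columns); colour is log2(CPM + 1) minus the mean of the gene, red above and blue below, with the scale ending at 2. Kmt2c, Kdm6b and Kdm4a are red in both Eos libraries, and Ezh2, Kat2a and Prmt5 are blue there.

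The balance of higher against lower members depended on the scaling, and so did that of all genes. Limma on log2(RPKM + 0.5) carries no TMM factor and lowers the median of all genes by 0.47 in Eos against EoP. It called 11 of 73 members higher and 23 lower there, against 14.5% and 43.4% of all genes. The same values gave 17 higher and 0 lower in EoP against GMP, against 23.8% and 3.54% of all genes. With library size alone in edgeR, 3 were higher and 10 lower in EoP against GMP, against 4.20% and 25.3% of all genes. That setting gave 20 higher and 25 lower in Eos against GMP, against 14.1% and 47.3% of all genes. Directions below are those of the TMM fit, relative to the bulk of genes. A call is said to hold where its adjusted p stayed under 0.05 in all 6 fits that each left out 1 library. By that measure 9 of the 24 higher and 6 of the 12 lower members held in Eos against EoP, and 8 and 6 of these were also called under every other setting run. Those 8 were Ezh1, Hdac4, Hdac5, Kdm4a, Kdm6b, Kmt2c, Kmt2e and Setd1b, and the 6 were Ezh2, Hdac2, Hdac6, Kat2a, Prmt3 and Prmt5.

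Several other quantities moved with these members. In all 24 higher members the second Eos library lay above the first, and in all 12 lower members it lay below the first. This order was counted for called members only, so it cannot be told from a difference between the libraries over all genes. Progenitor genes differed between the same libraries: the first held more Mpo (10533 against 3780 CPM), Kit (111 against 39.1 CPM) and Cd34 (18.4 against 7.72 CPM), and their part in this order was not tested. Which members were called in Eos against EoP also depended on Eos replicate 1. Without that library, the share called higher rose more among members than among all genes. The share called lower rose by a similar amount in both. Long transcripts also rose more often: with the genes tested divided into 3 equal groups by length, 48 members were in the longest group, of which 22 were higher and 2 lower in Eos than EoP, against 24.1% and 12.0% of all genes of that group. In the shortest group, 1 of 17 members was higher and 4 were lower, against 14.0% and 22.1% of genes. The part of transcript length in the balance of classes was not tested.

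**Figure D2:**
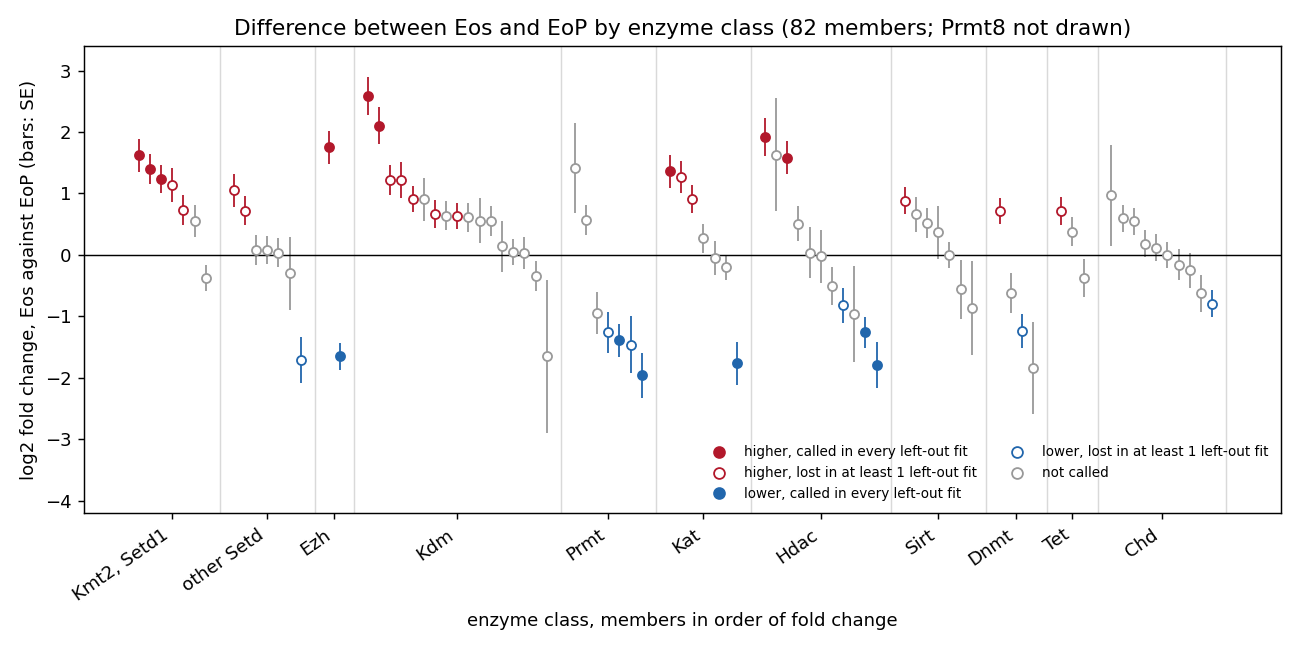
Log2 fold change of Eos against EoP (vertical axis, points, with bars for the SE of the edgeR fit) for 82 members grouped by class along the horizontal axis; red is higher, blue lower and grey not called, and filled points held in all fits that left out 1 library. The H3K4 methyltransferases and the Kdm class have called members only above 0, and 4 Prmt members are called below it.

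Among the 7 H3K4 methyltransferases, 5 were higher in Eos than EoP and none was lower. Against GMP, 3 were higher in Eos (Kmt2c, Kmt2e and Setd1b) and 1 was lower (Setd1a), beside 22.7% and 31.8% of all genes tested. Kmt2a, at 240 and 262 CPM in GMP, and Kmt2d, at 267 and 411 CPM, were not called between Eos and GMP. Kmt2c, which with Kmt2d places monomethyl marks at enhancers, measured 290 and 336 CPM in the EoP libraries and 746 and 1175 CPM in the Eos libraries. Both Eos values lay above every EoP and GMP value, a log2 fold change of 1.62 (SE 0.27, adjusted p = 0.00175). The gene spans chromosome 5, 25271794 to 25498783, in the mm10 build of the files. Kmt2e, a family member for which methyltransferase activity is doubtful, measured 295 and 319 CPM in EoP and 704 and 919 CPM in Eos (1.40, SE 0.24, adjusted p = 0.00188). Setd1b, the catalytic subunit of a complex that trimethylates H3K4, went from 53.7 and 50.8 CPM to 108 and 139 CPM (1.24, SE 0.23, adjusted p = 0.00304). These 3 calls between Eos and EoP held.

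Kmt2d measured 221 and 276 CPM in EoP and 476 and 615 CPM in Eos (1.14, SE 0.28, adjusted p = 0.0107), and its call was lost without EoP replicate 1 (adjusted p = 0.105). Kmt2a, the MLL gene rearranged in leukaemia, measured 215 and 243 CPM in EoP and 317 and 441 CPM in Eos (0.73, SE 0.24, adjusted p = 0.0366), and was called in only 1 of the 6 left-out fits, that without Eos replicate 1. Kmt2b measured 56.8 and 63.5 CPM against 70.8 and 106 CPM and did not pass (adjusted p = 0.114). Setd1a, the close relative of Setd1b, moved the other way. It measured 109 and 112 CPM in GMP, 71.5 and 85.9 CPM in EoP, and 63.8 and 57.9 CPM in Eos. Its difference passed between Eos and GMP (−0.86, SE 0.21, adjusted p = 0.00793; lost without GMP replicate 2, adjusted p = 0.109) and in neither step alone. The ratio of Setd1b to Setd1a RPKM, which no scaling between libraries can alter, was 0.357 and 0.449 in GMP, 0.503 and 0.396 in EoP, and 1.14 and 1.61 in Eos. None of the 7 was called between EoP and GMP, where log2 fold changes ran from −0.48 to 0.72. The upper end was Kmt2c, at 190 and 190 CPM in GMP, which passed only in the fits that left out an Eos library (adjusted p = 0.00760 and 0.00761) among those leaving out 1 library.

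Of the 17 demethylases of the Kdm class, 7 were higher in Eos than EoP and none was lower. Kdm6b, which removes methyl groups from lysine 27 of histone H3, had the largest difference: 28.1 and 36.0 CPM in EoP and 166 and 218 CPM in Eos, with 17.8 and 31.7 CPM in GMP. The log2 fold change of Eos against EoP was 2.58 (SE 0.31, adjusted p = 0.000284). Both Eos libraries lay far above all 4 progenitor libraries. Its partner for the same mark, X-linked Kdm6a, measured 121 and 149 CPM in EoP and 178 and 235 CPM in Eos and did not pass (0.61, adjusted p = 0.0575). Kdm4a, which acts on lysines 9 and 36 of histone H3, went from 31.7 and 28.3 CPM to 94.3 and 164 CPM (2.10, SE 0.30, adjusted p = 0.000811). The calls of Kdm6b and Kdm4a held.

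Kdm3a and Kdm3b, demethylases of lysine 9 of histone H3, both had log2 fold changes of 1.22. Kdm3a measured 94.5 and 92.7 CPM in EoP and 154 and 284 CPM in Eos (adjusted p = 0.00844; lost without EoP replicate 1 or 2, adjusted p = 0.0525 and 0.0501). Kdm3b measured 226 and 287 CPM in EoP and 496 and 699 CPM in Eos (adjusted p = 0.00505; lost without EoP replicate 1, adjusted p = 0.0683). Kdm4c was higher as well, with a log2 fold change of 0.67 (adjusted p = 0.0422), and kept its call only without Eos replicate 1 among the left-out fits. Kdm1a, the demethylase LSD1, stayed between 59.2 and 70.3 CPM in all 6 libraries. Between Eos and GMP, 10 of the 17 were higher and 7 of these calls held.

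The Kdm5 members, which erase the mapped mark, were tested beside the Kmt2 and Setd1 members. These are not all writers of H3K4me3: Kmt2c and Kmt2d place monomethyl marks, and the activity of Kmt2e is doubtful. Kdm5b measured 75.3 and 74.5 CPM in GMP, 113 and 99.7 CPM in EoP, and 178 and 223 CPM in Eos. Its difference between Eos and EoP was 0.91 (SE 0.21, adjusted p = 0.00872; lost without EoP replicate 1 or 2, adjusted p = 0.0515 and 0.0860). Kdm5a measured 180 and 206 CPM in EoP and 292 and 304 CPM in Eos (0.63, SE 0.21, adjusted p = 0.0373), and lost its call without any 1 of the 4 GMP or EoP libraries (adjusted p up to 0.265). X-linked Kdm5c measured 83.6 and 87.3 CPM in EoP and 99.9 and 151 CPM in Eos and did not pass (adjusted p = 0.0928). Of the 7 Kmt2 and Setd1 members 5 were thus higher in Eos than EoP, and of the 4 Kdm5 members 2, against 19.1% of all genes tested. The calls of Kmt2c, Kmt2e and Setd1b held, and those of Kdm5a and Kdm5b did not.

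Kdm5d, the Y-linked member, was nearly absent from GMP: its libraries held 0 and 1 counts, against 426 counts over both EoP libraries and 609 over both Eos libraries. Its levels were 27.0 and 16.9 CPM in EoP and 40.0 and 24.7 CPM in Eos. The ratio of EoP to GMP was 317 with a 95% counting interval of 56.5 to 12536, and that of Eos to GMP was 493 (88.1 to 19492). This was the only member called between EoP and GMP in every left-out fit (log2 fold change 8.08, SE 0.72, adjusted p = 0.000118). Other Y-linked genes had the same distribution. Ddx3y and Eif2s3y had no count in either GMP library and 30.5 to 46.1 CPM in EoP, and Uty, the Y-linked relative of Kdm6a, had 1 count in GMP and measured 26.3 and 15.7 CPM in EoP. Xist, made from the inactive X chromosome of female cells, was at 5063 and 3232 CPM in GMP, 1505 and 3796 CPM in EoP, and 1551 and 1889 CPM in Eos. The sexes of the pooled mice and the cell type cannot be told apart for this gene. The same limit applies to the X-linked members Kdm5c, Kdm6a, Hdac6 and Hdac8 in comparisons with GMP.

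The H3K4me3 libraries did not share this distribution. A promoter peak of Kdm5d was listed in GMP, on chromosome Y from 897630 to 898334 with a deposited fold enrichment of 11.4, and in EoP, from 897973 to 898134 with 4.63, and none was listed in Eos. The GMP chromatin and the GMP RNA therefore differ in whether a Y-linked promoter is detected. The reference sequence across the RefSeq start (GRCm38.p6, chrY:897638-897812, plus strand) overlaps the GMP peak and is shown because the mark and the RNA differ there. It holds 7 CpG in 175 bases and neither E2F form described below, so no letter is in capitals.

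Kdm5d: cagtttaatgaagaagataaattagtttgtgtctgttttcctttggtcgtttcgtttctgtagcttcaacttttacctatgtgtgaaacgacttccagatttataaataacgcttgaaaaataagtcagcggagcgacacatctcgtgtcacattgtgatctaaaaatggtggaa

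The 2 Polycomb subunits were called in opposite directions. Ezh2, the form of dividing cells, rose and then fell: 145 and 146 CPM in GMP, 233 and 235 CPM in EoP, and 84.4 and 65.1 CPM in Eos. Eos lay below both progenitors in every library, with a log2 fold change of −1.65 against EoP (SE 0.22, adjusted p = 0.000535), and this call held. The difference of EoP from GMP was 0.68 (SE 0.21, adjusted p = 0.0400) and was lost without any 1 of the 4 GMP or EoP libraries (adjusted p = 0.0952 to 0.220). Ezh1, the form found in cells that have stopped dividing, measured 41.3 and 32.2 CPM in GMP, 43.4 and 45.3 CPM in EoP, and 114 and 184 CPM in Eos. Its rise from EoP was 1.75 (SE 0.27, adjusted p = 0.00120) and held. Within a library the ratio of Ezh1 to Ezh2 RPKM was 0.180 and 0.138 in GMP, 0.118 and 0.121 in EoP, and 0.849 and 1.78 in Eos. Ezh1 exceeded Ezh2 in 1 of the 6 libraries, the second of Eos.

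The promoters of this pair are shown because they differ in a match to the E2F motif, which binds regulators of genes of the cell cycle. The stretches are 175 bases across the RefSeq starts (GRCm38.p6), Ezh2 at chr6:47595006-47595180 and Ezh1 at chr11:101226439-101226613, both on the minus strand and read in the direction of transcription. Capitals mark an exact match to TTTGGCGC, the second of 2 E2F forms searched beside TTTCCCGC on both strands. The E2F-like site of Dnmt1 (chr9:20952574-20952601, minus strand) is shown with them.

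Ezh2: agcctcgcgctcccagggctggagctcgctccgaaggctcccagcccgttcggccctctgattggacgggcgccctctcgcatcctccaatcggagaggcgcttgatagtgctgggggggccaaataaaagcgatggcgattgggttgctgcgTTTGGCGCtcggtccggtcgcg

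Ezh1: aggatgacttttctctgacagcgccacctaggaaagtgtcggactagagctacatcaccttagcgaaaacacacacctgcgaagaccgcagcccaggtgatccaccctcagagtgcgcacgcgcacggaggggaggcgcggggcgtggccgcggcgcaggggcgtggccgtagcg

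Dnmt1: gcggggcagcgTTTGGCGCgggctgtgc

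The match begins 4 bases after the start in Ezh2 and 34 bases after the start at 20952623 in Dnmt1, and neither E2F form was found in the 300-base window of Ezh1. That start of Dnmt1 belongs to a minor transcript, with 16 to 361 deposited counts per library, against 469 to 2068 for each of 2 transcripts that start at 20952979. RefSeq promoter windows, from 250 bases before to 50 after a start, were matched for 67 of the 83 members. An E2F form was present in 3 of them (4.48%), against 3.24% of the tested genes that have a window and 1.80% of all windows. The third was Sirt4, which is named because only these 3 carried the match. Its TTTCCCGC begins at position −9 and its RNA was not called. Among members lower in Eos than EoP the match was found in 2 of 11, and among those higher in 0 of 18. For all tested genes the shares were 6.28% of lower and 2.20% of higher ones. As for E2F, the shares of the other motifs in members were near those of tested genes. GGGCGG, the SP/KLF motif, was present in 70.1% of the member windows and 64.2% of those of tested genes, CCGGAAG, the ETS motif, in 19.4% and 18.3%, and AGATAA, the GATA motif, in 11.9% and 8.56%. The median CpG count per window was 23.0 in members, 21.0 in tested genes and 8.0 in all genes. A match is a sequence in this window and no evidence of binding.

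**Figure D3:**
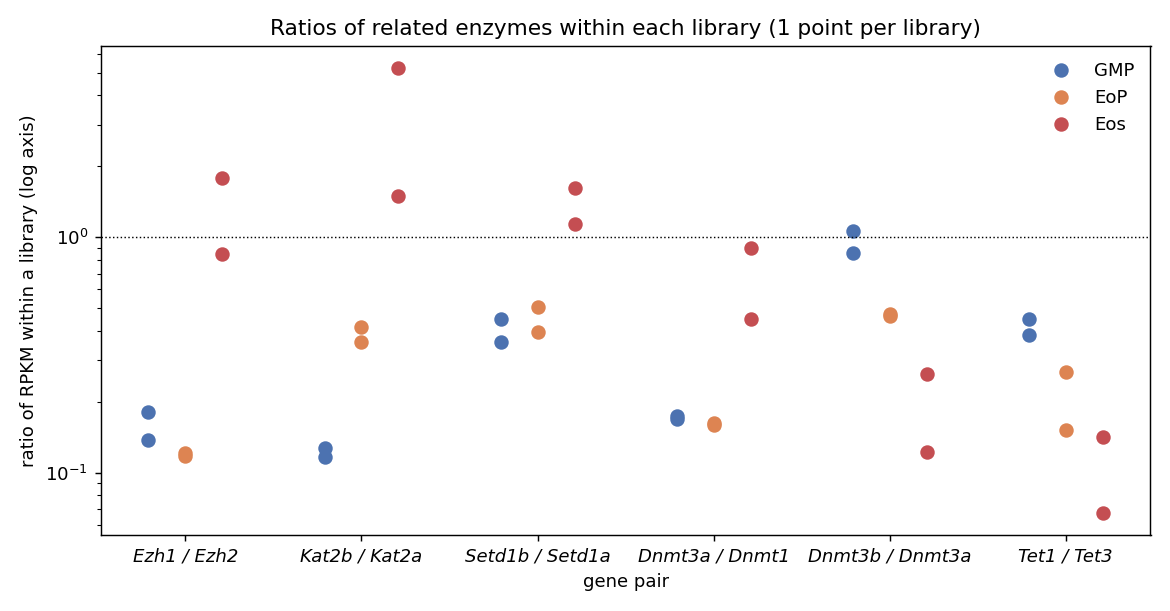
Ratio of RPKM of 2 related enzymes within a library (vertical log axis) for 6 gene pairs (horizontal axis), with 1 point per library coloured by cell type. The Ezh1 to Ezh2 ratio is at most 0.180 in the 4 progenitor libraries and at least 0.849 in Eos, and the Dnmt3b to Dnmt3a ratio is highest in GMP.

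Of the 8 arginine methyltransferases, 4 were lower in Eos than EoP and 1 was higher, and 6 were lower in Eos than GMP. Prmt5, which makes symmetric dimethylarginine, measured 55.2 and 83.1 CPM in GMP, 57.0 and 46.7 CPM in EoP, and 18.5 and 8.07 CPM in Eos. The log2 fold change of Eos against EoP was −1.96 (SE 0.37, adjusted p = 0.00328). Prmt3, which methylates a protein of the small ribosomal subunit, went from 49.2 and 46.1 CPM to 22.9 and 13.4 CPM (−1.39, SE 0.27, adjusted p = 0.00393). Both calls held, and for both genes the Eos libraries lay below all progenitor libraries.

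Prmt1, the main source of asymmetric dimethylarginine, fell in 2 steps: 83.5 and 86.4 CPM in GMP, 35.6 and 38.6 CPM in EoP, and 21.4 and 9.47 CPM in Eos. The first step was −1.19 (SE 0.33, adjusted p = 0.0230; lost without any 1 GMP or EoP library, adjusted p = 0.124 to 0.160). The second was −1.26 (SE 0.33, adjusted p = 0.0152; lost without EoP replicate 2, adjusted p = 0.0682). The whole difference between Eos and GMP, −2.45 (SE 0.34, adjusted p = 0.000406), held. Prmt7 measured 27.2 and 22.5 CPM in EoP and 13.9 and 4.09 CPM in Eos (−1.46, SE 0.46, adjusted p = 0.0320), and was called only without Eos replicate 1 among the left-out fits. Prmt8, an enzyme known from neurons, had 119 counts in GMP (9.56 and 5.96 CPM), none in EoP and 12 in Eos. It was at least 53.4-fold lower in EoP than GMP, taking 3 counts over the group as the floor, and that call was lost without GMP replicate 1 (adjusted p = 0.0511). The rise to Eos was at least 4.35-fold on the same floor, and that call was lost in every left-out fit except the one without Eos replicate 1. Prmt10, now called Prmt9, went against the class. It measured 17.9 and 20.7 CPM in GMP, 43.3 and 38.2 CPM in EoP, and 49.9 and 71.3 CPM in Eos, a difference between Eos and GMP of 1.65 (SE 0.26, adjusted p = 0.000768) that held.

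The acetyltransferases Kat2a and Kat2b, alternative catalytic subunits of the SAGA and ATAC complexes, changed in opposite directions. Kat2a measured 84.2 and 96.5 CPM in GMP, 69.8 and 63.1 CPM in EoP, and 27.5 and 11.5 CPM in Eos, a log2 fold change of −1.76 between Eos and EoP (SE 0.35, adjusted p = 0.00415) that held. Kat2b measured 16.2 and 17.0 CPM in GMP, 38.3 and 39.7 CPM in EoP, and 62.6 and 84.5 CPM in Eos. Each step of Kat2b passed, at 1.23 (SE 0.24, adjusted p = 0.00687) and 0.91 (SE 0.23, adjusted p = 0.0124). The first was lost without GMP replicate 1 (adjusted p = 0.0774) and the second without EoP replicate 1 or 2 (adjusted p = 0.0980 and 0.0698). The difference between Eos and GMP was 2.15 (SE 0.24, adjusted p = 0.000120) and held. The ratio of Kat2b to Kat2a RPKM was 0.127 and 0.116 in GMP, 0.360 and 0.415 in EoP, and 1.49 and 5.22 in Eos. The groups did not overlap at either step. RefSeq lists a pseudogene, Kat2b-ps, whose reads the counting may have divided with Kat2b.

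Kat6b, a catalytic subunit of the MORF complex, measured 25.4 and 32.4 CPM in EoP and 58.9 and 89.1 CPM in Eos (1.36, SE 0.27, adjusted p = 0.00413; called in every left-out fit). Its relative Kat6a, of the MOZ complex and needed for blood stem cells, measured 159 and 200 CPM in EoP and 351 and 516 CPM in Eos (1.27, SE 0.26, adjusted p = 0.00432; lost without EoP replicate 1, adjusted p = 0.0561). Kat5, Kat7 and Kat8 were not called in any comparison, with log2 fold changes between −0.20 and 0.47.

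**Figure D4:**
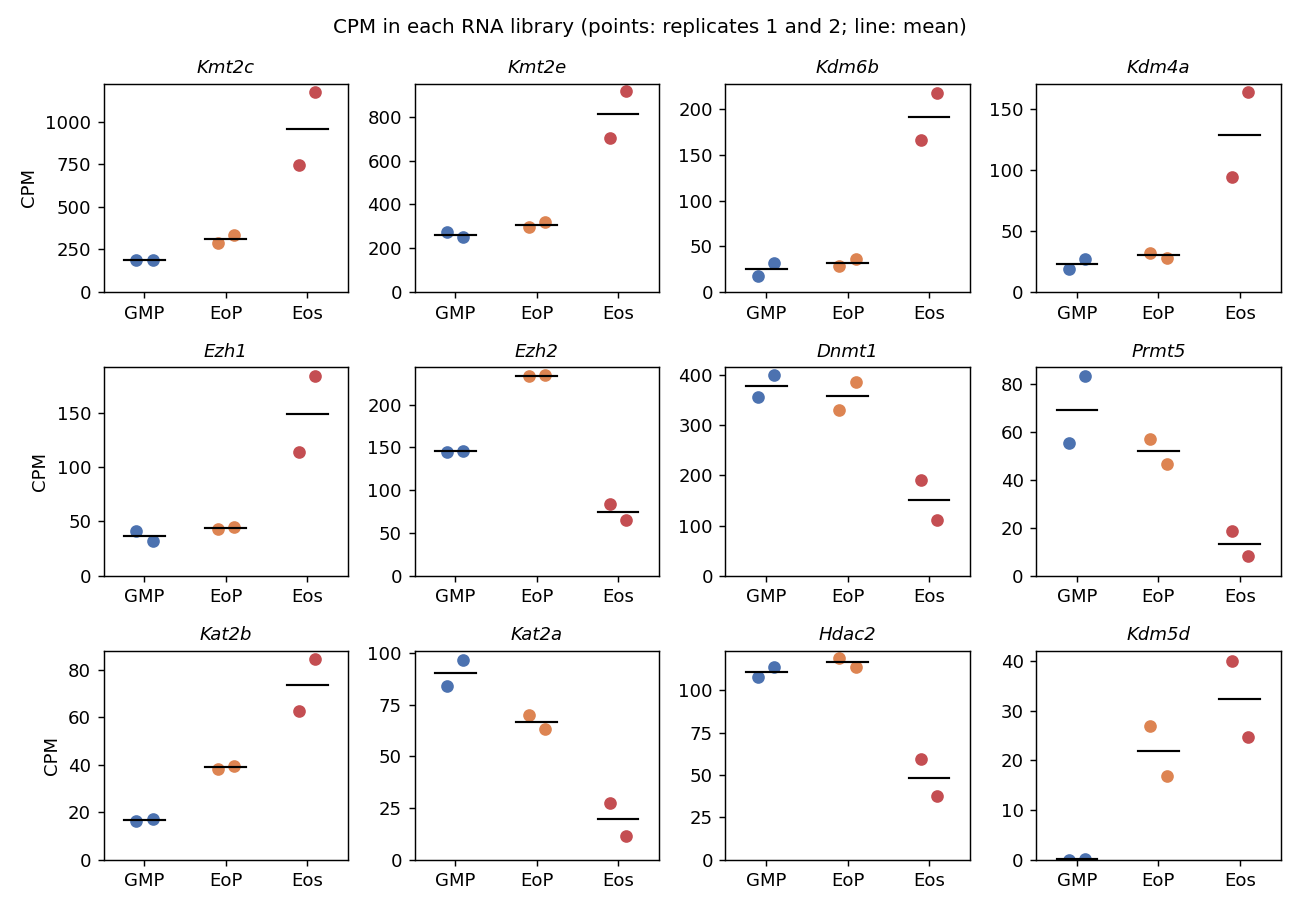
CPM (vertical axis, starting at 0 and scaled separately in each panel) of 12 members in each RNA library; points are the 2 libraries of GMP, EoP and Eos along the horizontal axis and lines are their means. In the Eos libraries Kmt2c, Kmt2e, Kdm6b, Kdm4a, Ezh1 and Kat2b lie above all progenitor libraries, Ezh2, Dnmt1, Prmt5, Kat2a and Hdac2 lie below them, and Kdm5d is at 0 and 0.149 CPM in GMP.

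Among the histone deacetylases, of the 4 class I enzymes, the nuclear catalytic subunits of corepressor complexes, 2 were lower in Eos than EoP and none was higher. Hdac2 measured 119 and 114 CPM in EoP and 59.6 and 37.4 CPM in Eos (−1.26, SE 0.25, adjusted p = 0.00410), a call that held. Hdac3 measured 43.8 and 37.7 CPM in EoP and 28.9 and 17.1 CPM in Eos (−0.82, SE 0.28, adjusted p = 0.0430), and was called only without Eos replicate 1 among the left-out fits. Hdac1 lay between 10.8 and 15.7 CPM in all libraries. A pseudogene, Hdac1-ps, makes that level uncertain. X-linked Hdac8 lay between 4.92 and 6.60 CPM.

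Of the 4 class IIa enzymes, signal-responsive corepressors that shuttle between nucleus and cytoplasm, 2 were higher in Eos than EoP and none was lower, while from GMP to EoP 2 were lower and none was higher. A difference between the classes was not tested. Hdac4 measured 14.6 and 22.3 CPM in EoP and 65.5 and 74.7 CPM in Eos (1.92, SE 0.31, adjusted p = 0.00153). Hdac5 measured 29.5 and 28.0 CPM in GMP, 17.0 and 14.6 CPM in EoP, and 38.2 and 55.9 CPM in Eos. Its rise from EoP to Eos was 1.58 (SE 0.27, adjusted p = 0.00175), and the calls of Hdac4 and Hdac5 held. The earlier fall of Hdac5, by 0.87 on the log2 scale (adjusted p = 0.0357), was lost without any 1 GMP or EoP library (adjusted p = 0.122 to 0.300). Hdac9 measured 11.3 and 12.8 CPM in GMP, 0 and 2.91 CPM in EoP, and 5.82 and 3.74 CPM in Eos. It was lower in EoP than GMP (−2.95, SE 0.93, adjusted p = 0.0400), and lost its call without GMP replicate 1 or 2 or EoP replicate 1 (adjusted p = 0.156, 0.171 and 0.0612). Hdac6, the X-linked class IIb enzyme that deacetylates tubulin, measured 8.23 and 11.3 CPM in GMP, 17.0 and 20.9 CPM in EoP, and 6.73 and 4.21 CPM in Eos. The fall from EoP to Eos was −1.79 (SE 0.38, adjusted p = 0.00565) and held.

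Of the 7 NAD-dependent sirtuins, 1 was higher in Eos than EoP and none was lower. Sirt7, a nucleolar enzyme, measured 85.9 and 68.1 CPM in EoP and 137 and 147 CPM in Eos (0.88, SE 0.22, adjusted p = 0.0113; lost without EoP replicate 2, adjusted p = 0.115). Sirt3, the main deacetylase of mitochondria, measured 24.0 and 32.5 CPM in GMP and 12.3 and 16.1 CPM in EoP, a fall of 0.99 on the log2 scale (adjusted p = 0.0281) that was lost without any 1 GMP or EoP library. Of the other Setd members, Setd6, a lysine methyltransferase of a subunit of NF-kappaB, measured 13.6 and 18.6 CPM in EoP and 6.03 and 3.74 CPM in Eos (−1.71, SE 0.37, adjusted p = 0.00611; lost without EoP replicate 2, adjusted p = 0.0517). Setd2, which trimethylates lysine 36 of histone H3, and Setd7 were higher (0.72 and 1.05, adjusted p = 0.0385 and 0.0126). The call of Setd2 was lost in every left-out fit except the one without Eos replicate 1, and that of Setd7 without EoP replicate 1 or 2 (adjusted p = 0.0873 and 0.0698).

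The DNA methyltransferases had 1 member higher and 1 lower in Eos than EoP. Dnmt1, the maintenance enzyme that follows the replication fork, measured 356 and 400 CPM in GMP, 330 and 385 CPM in EoP, and 191 and 112 CPM in Eos. Both Eos libraries lay below every progenitor library, with a log2 fold change of −1.24 against EoP (SE 0.28, adjusted p = 0.00728; lost without EoP replicate 2, adjusted p = 0.0538). Dnmt3b fell earlier: 37.9 and 54.1 CPM in GMP, 18.4 and 20.7 CPM in EoP, and 16.5 and 9.0 CPM in Eos. The step from GMP to EoP was −1.23 (SE 0.32, adjusted p = 0.0202; lost without any 1 GMP or EoP library, adjusted p = 0.0703 to 0.238), and the difference between Eos and GMP was −1.85 (SE 0.33, adjusted p = 0.00173) and held. Dnmt3a measured 89.6 and 102 CPM in EoP and 145 and 168 CPM in Eos (0.71, SE 0.21, adjusted p = 0.0260), and was called only without Eos replicate 1 among the left-out fits. Dnmt3l, a cofactor without catalytic activity, stayed at 0.468 to 4.46 CPM. The ratio of Dnmt3b to Dnmt3a RPKM was 0.853 and 1.06 in GMP, 0.473 and 0.464 in EoP, and 0.263 and 0.122 in Eos, and that of Dnmt3a to Dnmt1 was 0.169 and 0.174, 0.162 and 0.159, and 0.449 and 0.895.

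Of the 3 Tet dioxygenases, Tet3 was higher and Tet1 lower in Eos than GMP. Tet3 measured 140 and 139 CPM in GMP, 200 and 203 CPM in EoP, and 278 and 385 CPM in Eos. Its difference between Eos and GMP was 1.25 (SE 0.23, adjusted p = 0.00193) and held, and that between Eos and EoP was 0.72 (adjusted p = 0.0322) and was called only without Eos replicate 1 among the left-out fits. Tet1 measured 80.4 and 68.8 CPM in GMP, 39.2 and 69.9 CPM in EoP, and 50.4 and 33.2 CPM in Eos. It was lower in Eos than GMP (−0.83, SE 0.31, adjusted p = 0.0443; lost without either GMP library, EoP replicate 2 or Eos replicate 2, adjusted p = 0.0865 to 0.201). Tet2, often mutated in clonal blood disorders, measured 177 to 279 CPM in all libraries and was not called. The ratio of Tet1 to Tet3 RPKM was 0.447 and 0.385 in GMP, 0.152 and 0.267 in EoP, and 0.141 and 0.0673 in Eos.

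The Chd genes encode chromodomain remodelers, which move nucleosomes and leave no mark. None of 10 was higher in Eos than EoP and 1 was lower, while 3 were higher in EoP than GMP. The lower member, Chd9, measured 318 and 355 CPM in EoP and 206 and 184 CPM in Eos (−0.79, SE 0.22, adjusted p = 0.0189; lost without EoP replicate 1 or 2, adjusted p = 0.0717 and 0.152). Chd3, an ATPase of the NuRD complex, measured 15.6 and 27.1 CPM in GMP and 69.0 and 64.8 CPM in EoP (1.65, SE 0.30, adjusted p = 0.00489; lost without GMP replicate 1, adjusted p = 0.0620), and stood at 47.5 and 65.0 CPM in Eos. Chd7, the gene of CHARGE syndrome, measured 143 and 152 CPM in GMP, 250 and 264 CPM in EoP, and 336 and 416 CPM in Eos. Chd2 measured 113 and 105 CPM, 179 and 191 CPM, and 242 and 317 CPM. The calls of Chd7 and Chd2 between EoP and GMP (adjusted p = 0.0230 and 0.0288) were lost without any 1 GMP or EoP library (adjusted p = 0.0816 to 0.180), whereas their differences between Eos and GMP, 1.35 (SE 0.22, adjusted p = 0.00100) and 1.36 (SE 0.22, adjusted p = 0.00103), held.

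In EoP against GMP, the shares of all genes called higher and lower fell in every fit that left out a GMP or EoP library. Among the members, the step from GMP to EoP rested on few firm calls. Of its 7 higher members 1 held, Kdm5d, and of its 6 lower members none did. For Kdm5d the sexes of the pooled mice and the cell type cannot be told apart. How many calls held among all genes was not counted. Both Eos libraries enter that fit through the shared estimate of spread. With only the GMP and EoP libraries in the fit, 14 of 83 members were higher and 7 lower, against 14.8% and 21.5% of all genes.

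Related chromatin genes that the symbol rule did not take, such as partner subunits, readers and other writers, were counted from a list of 114. Of the 112 tested, 27 were higher (24.1%) and 31 lower (27.7%) in Eos than EoP, against 19.1% and 17.7% of all genes tested. In EoP against GMP, 10 were higher (8.93%) and 7 lower (6.25%), against 9.49% and 17.1% of all genes. Padi4, which converts arginine of histones to citrulline and is known from granulocytes, measured 3.27 and 2.68 CPM in GMP, 40.9 and 41.1 CPM in EoP, and 359 and 491 CPM in Eos. Its difference between Eos and EoP was 3.37 (SE 0.25, adjusted p = 2.33e-05), and it rose at both steps. Jhdm1d, a demethylase outside the Kdm symbols, measured 89.0 and 91.5 CPM in EoP and 531 and 748 CPM in Eos (2.82, SE 0.26, adjusted p = 7.08e-05). Phf1, a Polycomb accessory subunit, measured 8.37 and 7.11 CPM in EoP and 43.4 and 66.3 CPM in Eos (2.82, SE 0.33, adjusted p = 0.000273). Its relative Phf19 fell earlier, from 20.6 and 18.6 CPM in GMP to 4.60 and 5.31 CPM in EoP (−1.98, SE 0.43, adjusted p = 0.0105; lost without any 1 GMP or EoP library, adjusted p = 0.0618 to 0.0874). Rbbp7, a histone-binding subunit of Polycomb and deacetylase complexes, fell with Ezh2 and Hdac2, from 192 and 206 CPM in EoP to 74.3 and 31.6 CPM in Eos (−1.91, SE 0.35, adjusted p = 0.00249). Uhrf1, which guides Dnmt1 to newly copied DNA, measured 133 and 140 CPM in GMP, 107 and 122 CPM in EoP, and 49.0 and 18.7 CPM in Eos, a difference between Eos and GMP of −2.01 (SE 0.37, adjusted p = 0.00206).

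H3K4me3 was present at most of these genes in every population. A promoter peak was listed for 75 of the 83 members in GMP, 71 in EoP and 71 in Eos, against 81.4%, 74.1% and 76.2% of all genes tested. It was listed for 69 members in all 3 lists, against 72.5% of all genes tested. Each list came from 1 library, so a difference between lists has no replicate check, and the lists differ in length, with 30645, 19816 and 33847 peaks. Deposited fold enrichments of the members' best promoter peaks ran from 3.91 to 18.5 in GMP, 4.30 to 12.7 in EoP, and 4.13 to 19.8 in Eos. Ezh1 had a promoter peak in all 3 lists, with fold enrichments of 14.7, 12.3 and 16.8, and so did Ezh2, with 9.59, 8.20 and 7.58.

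Peaks of a promoter were missing from part of the lists for 6 members. Prmt3 and Tet3 had peaks in GMP and Eos and none in EoP, the shortest list. Kdm5d and Sirt4 had them in GMP and EoP, and Chd5 and Hdac11 in GMP alone. Of all genes tested, 2.65% had peaks in GMP and Eos only, 1.42% in GMP and EoP only, and 4.91% in GMP alone. Sirt4, Chd5 and Hdac11, all under 4 CPM in every library, are named after their values were seen. No promoter peak was listed in any list for 8 members, against 17.4% of all genes tested. They were Chd8, Dnmt3l, Hdac4, Hdac9, Kdm6b, Prmt8, Sirt5 and Tet1. For Chd8, Hdac4, Sirt5 and Tet1 a peak lay within 1000 bases of the start in the newer RefSeq annotation in all 3 lists. That start differs from the one in the files. For Hdac4 that start is 92180341 on chromosome 1, against 92148393 in the files, and the nearest peaks lay 263, 290 and 307 bases from it. Kdm6b had its nearest peaks 1944 and 2020 bases downstream of the start in GMP and EoP and 2042 bases upstream in Eos.

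**Figure D5:**
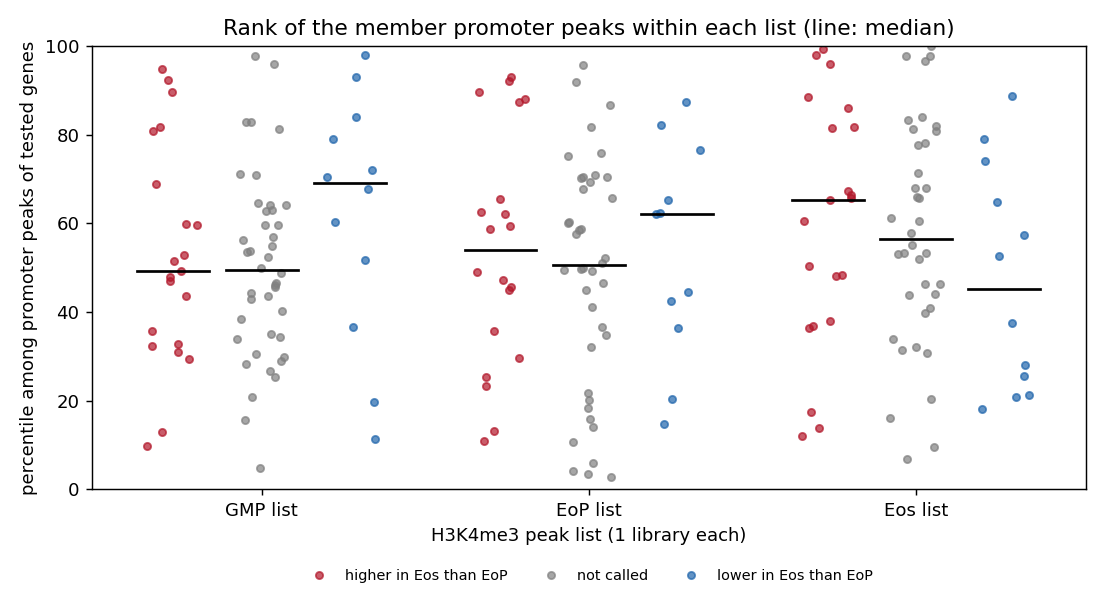
Percentile of each member's best promoter peak, by its deposited −log10 q, among the promoter peaks of all tested genes (vertical axis) in the GMP, EoP and Eos lists (horizontal axis, 1 library each), coloured by the RNA call of Eos against EoP; lines are medians. The points of all 3 colours cover most of the scale within each list, and percentiles of different lists are not a measure of change.

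Peak height was also read by the RNA call between Eos and EoP. Within the Eos list, the median percentile was 65.3 for the 21 higher members with a peak, 45.0 for the 12 lower ones and 56.5 for the 38 not called. In the EoP list it was 54.0 for 20 higher, 62.1 for 11 lower and 50.5 for 40 not called. In the GMP list the order was the opposite of that in Eos, with 49.2 for 21 higher, 69.1 for 12 lower and 49.3 for 42 not called. The ranges overlapped almost fully, from 11.9 to 99.2 for the higher and from 18.1 to 88.7 for the lower members in the Eos list. These are descriptions of 1 library each.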

How the data were processed

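RNA was measured in 6 libraries and H3K4me3 in 3. The authors deposited an estimated count (whole numbers) and an RPKM value per transcript. STAR 2.4.0c, Bowtie 1.0.0 and build mm10 were used, per the submitters' processing notes, and the labels name no counting tool. Per the file headers, peaks carry the authors' pileup signal, fold enrichment, −log10 p and −log10 q, and a gene and region name. Counts and RPKM were summed per gene symbol. edgeR 4.0.16 (R 4.3.3) tested genes kept by filterByExpr in 1 quasi-likelihood fit of all 6 libraries with TMM factors and no block, tested on simulated data, and Benjamini-Hochberg adjustment ran over all 14324 genes. Alternatives used DESeq2 1.42.0, limma 3.58.1, other scalings and filters, and each library left out. RPKM takes no TMM factor. Named genes were every Dnmt, Tet, Ezh, Kmt2, Setd1 and Kdm5 member, the 8 largest called changes per direction and comparison at 5 CPM or more, sex-linked members, members at 5 CPM or more lacking a promoter peak, members with no count in a group, and the 4 largest related genes per direction. Kdm1a, Kdm3b, Kdm4c, Kat6a, Setd2, Setd7, Sirt7, Chd9, Hdac1 and Hdac3 were also named with values, outside these rules and with results known. Intervals cover counting error only. Promoter windows came from RefSeq GRCm38.p6, a C57BL/6J reference. The members and lists were chosen with earlier results of these data known.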

Additional observations from a re-analysis of the deposited data

How the results depend on the processing

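Against 7 higher and 6 lower members in EoP against GMP, upper quartile factors gave 4 higher, library size alone 3 higher and 10 lower, no filter 11 higher, at least 50 counts in 2 libraries 4 higher, log2(RPKM + 0.5) 17 higher and 0 lower, log2(RPKM + 0.1) 16 higher and 0 lower, and only the compared groups 14 higher. Leaving out each library gave 1 to 17 higher and 0 to 6 lower. Against 24 higher and 12 lower in Eos against EoP, log2(RPKM + 0.5) gave 11 higher and 23 lower, log2(RPKM + 0.1) gave 10 and 19, and leaving out a library gave 10 to 34 higher and 6 to 15 lower. Against 15 lower in Eos against GMP, library size alone gave 25, and leaving out a library gave 7 to 16. Shares of all genes called moved with the scaling too. In EoP against GMP they were 9.49% higher and 17.1% lower in the TMM fit. They were 23.8% and 3.54% with log2(RPKM + 0.5), 22.0% and 2.93% with log2(RPKM + 0.1), and 4.20% and 25.3% with library size alone. The share higher was 6.63% with upper quartile factors, 8.29% with no filter, 8.90% with the 50-count filter, and 14.8% with only the compared groups. In Eos against EoP, log2(RPKM + 0.5) gave 14.5% and 43.4%, and log2(RPKM + 0.1) gave 13.9% and 41.9%, against 19.1% and 17.7% with TMM. Shares of all genes also moved in the left-out fits. Chd8 in Eos against GMP was 0.58 in the TMM fit and −0.01 with library size alone. A setting without TMM factors moves the median of all genes, by −0.46 and −0.58 with library size alone in EoP and Eos against GMP; the cause of the other changes was not tested. A lone library in a left-out fit is assumed to vary like the other groups. Same-numbered libraries did not deviate together (correlations of −0.0995, 0.0194 and −0.0849), so the numbers are not taken as pairs. With a replicate block, 6 members were higher and 5 lower in EoP against GMP, 22 and 12 in Eos against EoP, and 28 and 14 in Eos against GMP. Counts of members with a promoter peak stayed within 1.5 times under all peak thresholds and assignments tried; 2 assignments were chosen after seeing the data.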
